A study of Mus musculus with 13 samples.

Results

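Respiratory complexes II to V and cytochrome c were followed through their nuclear-encoded subunit genes in mouse microglia. Genes were taken by symbol from the 14518 genes of the table: Sdha to Sdhd, symbols starting with Uqcr, with Cox4 to Cox8, or with Atp5 and a letter, and Cycs, leaving out pseudogenes. This gave 45 members, 4 of complex II, 8 of complex III, 15 of complex IV, 17 of complex V and the gene of cytochrome c. The symbol rule also takes Atp5s and Atp5sl (now named Dmac2), which are not subunits of the synthase in the textbook sense. It does not take Cyc1, Ndufa4, Usmg5, 2010107E04Rik and Atpif1, which are given apart. Cox4i2 and the subunits encoded in mitochondrial DNA were not analysed here.

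Microglia are the resident macrophages of the brain. They were sorted as CD11b-positive cells of intermediate CD45 from C57BL/6 mice 2 months of age. One group had been put through repeated social defeat for 6 cycles (RSD, n = 7), a stress in which mice are exposed to an aggressor, and the other served as controls (CON, n = 6). The cells were collected 24 days later, and the comparison asks which transcripts differed at that time. No transgene or deletion is named for either group, and the labels do not say whether each sample came from a separate animal. Values are normalized reads, meaning read counts divided by a size factor of the library.

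Complexes II, III and IV pass electrons along the inner mitochondrial membrane, and complex V uses the proton gradient to make ATP. Complex II is also the succinate dehydrogenase of the citric acid cycle. Complex III takes electrons from ubiquinol and hands them to cytochrome c, a small soluble carrier, and complex IV passes them on to oxygen. Apart from complex II, whose subunits are all nuclear-encoded, these complexes combine nuclear-encoded subunits with others encoded in mitochondrial DNA. Macrophages and microglia are known to shift between oxidative phosphorylation and glycolysis as they change state. Free cytochrome c in the cytosol triggers apoptosis.

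Nuclear respiratory genes are often described as sharing promoter sites for NRF-1, for GABP of the ETS family and for YY1. The windows searched run from 250 bases before to 50 bases after each start site (RefSeq, GRCm38.p6), and 35 of the 45 members had at least 1 window. GCGCANG, a core of the NRF-1 site, was found on either strand in the windows of 18 of the 35 members (51.4%) and of 18.5% of the 27025 genes in the table. CCGGAAG, a core of the ETS site, was found in 12 members (34.3%) and in 9.93% of all genes. CCATNTT, a core of the YY1 site, was found in 8 members (22.9%) and in 18.2% of all genes. Over single windows the shares were 16.6%, 8.86% and 16.1% of 32851. The median GC content was 56.3% over the 39 member windows and 52.7% over all windows, and the motifs do not overlap in the stretches shown. A match is a run of letters and not a bound site.

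The stretches below belong to the member with the smallest p in this comparison (Cycs), to a pair of complex III genes with low values in the same library (Uqcr11 and Uqcr10), and to Atp5j. The last lies head to head with Gabpa, the gene of the DNA-binding subunit of GABP, on chromosome 16. Each is written 5′ to 3′ on the strand of the gene and ends at the base before its start site. Capitals mark the motif matches. They lie at chr6:50566570-50566819, chr10:80406822-80407071, chr11:4704345-4704594 and chr16:84834977-84835123, all on the minus strand.
Cycs: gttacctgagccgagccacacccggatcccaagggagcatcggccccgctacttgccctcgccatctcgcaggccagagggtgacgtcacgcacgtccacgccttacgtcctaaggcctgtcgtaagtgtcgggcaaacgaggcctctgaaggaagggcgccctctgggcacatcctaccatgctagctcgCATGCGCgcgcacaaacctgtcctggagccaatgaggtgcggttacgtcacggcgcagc
Uqcr11: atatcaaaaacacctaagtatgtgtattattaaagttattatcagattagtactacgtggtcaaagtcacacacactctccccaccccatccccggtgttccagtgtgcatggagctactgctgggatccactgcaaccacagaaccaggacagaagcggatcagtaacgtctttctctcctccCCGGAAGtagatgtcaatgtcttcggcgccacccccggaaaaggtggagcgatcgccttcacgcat
Uqcr10: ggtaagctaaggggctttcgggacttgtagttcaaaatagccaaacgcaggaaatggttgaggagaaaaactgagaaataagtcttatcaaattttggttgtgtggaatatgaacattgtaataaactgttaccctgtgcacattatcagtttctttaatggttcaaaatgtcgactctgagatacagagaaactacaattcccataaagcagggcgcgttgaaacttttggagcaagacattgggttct
Atp5j: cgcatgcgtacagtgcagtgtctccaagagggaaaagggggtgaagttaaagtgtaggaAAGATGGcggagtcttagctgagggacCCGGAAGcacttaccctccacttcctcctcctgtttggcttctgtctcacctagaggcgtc

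The Cycs stretch holds 1 match of the NRF-1 letters, and the Uqcr11 stretch holds 1 match of the ETS letters. Uqcr11 also has an NRF-1 match in its searched sequence, which does not lie wholly within the printed bases. Uqcr10 holds no match in its window. The Atp5j stretch is the 147 bases between the start site used here and that of Gabpa, which is read in the opposite direction. It holds 1 ETS and 1 YY1 match. In the GENCODE annotation Atp5j extends to base 84835625 and overlaps Gabpa on the opposite strand. The stretch thus lies inside the annotated Atp5j gene. Of the 18 tested members with an NRF-1 match, 11 had a lower mean log2 value in RSD than in CON, with a median log2 difference of -0.04. Of the 15 tested members with a window and no such match, 10 were lower, with a median of -0.14. For ETS, 6 of 12 members with a match and 15 of 21 without were lower, with medians of -0.01 and -0.10. For YY1, 3 of 8 and 18 of 25 were lower, with medians of 0.02 and -0.11. These splits were not tested.

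The libraries held 9.76 to 12.3 M reads over the 14518 genes. Of the 45 members, 42 passed the filter on low counts, and Cox6a2, Cox6b2 and Cox8b did not. A pair of libraries stood apart. CON 18 had 14729.6 normalized reads summed over 6 border macrophage markers, against 185.7 to 328.7 in the other controls and 290.1 to 444 in RSD. Its sum over 8 microglial markers was 180295, against 275739 to 295382 in the other 12 libraries. RSD 8 had a Spearman correlation of -0.725 between its deviation from the other libraries and the transcript's GC content, over all genes tested, and RSD 2 had -0.562. No marker gene of microglia, border macrophages, monocytes, neutrophils, astrocytes, oligodendrocytes, neurons, endothelium or vessel wall passed the limma test. No gene of any kind did, so this does not show equal cell content. Of the 8 microglial markers 5 were higher in RSD and 3 lower. All 5 neutrophil markers were higher, with sums of 21.1 to 1185 in RSD and 11.6 to 730 in CON. All tested markers of monocytes (3), oligodendrocytes (3), neurons (3) and border macrophages (2) were lower. Astrocyte and vessel wall markers split 1 to 1, and the endothelial marker tested was higher. Of the T and B cell markers none was abundant enough to test. In sorted bulk RNA, fewer cells of a type and less RNA per cell cannot be told apart.

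Per kilobase of the longest annotated transcript, the catalytic core of ATP synthase stood highest. Atp5b, the catalytic beta subunit, had a mean of 620.1 normalized reads per kilobase over the 13 libraries. Atp5a1, the alpha subunit, had 561, and Atp5c1, the gamma subunit of the rotating shaft, had 427. The lowest were the muscle forms Cox6a2 with 7.85 and Cox8b with 11.3, and then Atp5g1 with 13.6. The place of Atp5g1 depended on the transcript taken. With the shortest principal transcript, a choice made after the data were seen, it had 108 and Cox6b2 (19.1) took its place among the lowest. On that scale Atp5c1 (636), Atp5b (620.1), Atp5h (611) and Atp5a1 (607) were the highest, and their group values overlapped. Atp5l moved in the same way, from 26.1 to 303 normalized reads per kilobase, and Cox6c from 50.9 to 307.

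None of the 42 members passed an adjusted p of 0.05 in limma, and none of the 12496 genes tested did (0%), with a smallest adjusted p of 0.821. At an unadjusted p under 0.05 there were 2 members, Cycs on the higher and Cox4i1 on the lower side, or 4.76%, beside 500 of all genes (4%). edgeR called 0 of all genes (0%), with 2 members and 601 genes (4.81%) under an unadjusted 0.05. DESeq2 called 2 genes (0.016%), none of them a member, with 2 members and 577 genes (4.62%) under an unadjusted 0.05. For no member did the RSD libraries lie wholly above or below the CON libraries, as they did for 8 of all genes (0.064%). Of the members 26 were lower in RSD (61.9%), with a median log2 difference of -0.04, beside 48.6% of all genes and a median of 0.01. The median standard error of a member's log2 difference was 0.13. With sample quality weights (limma-voom) 36 of the 42 were lower, with a median of -0.10 and none called. The share of all genes lower in that fit is not given here. A shift of all genes therefore cannot be told apart from a shift of the members there.

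**Figure D1:**
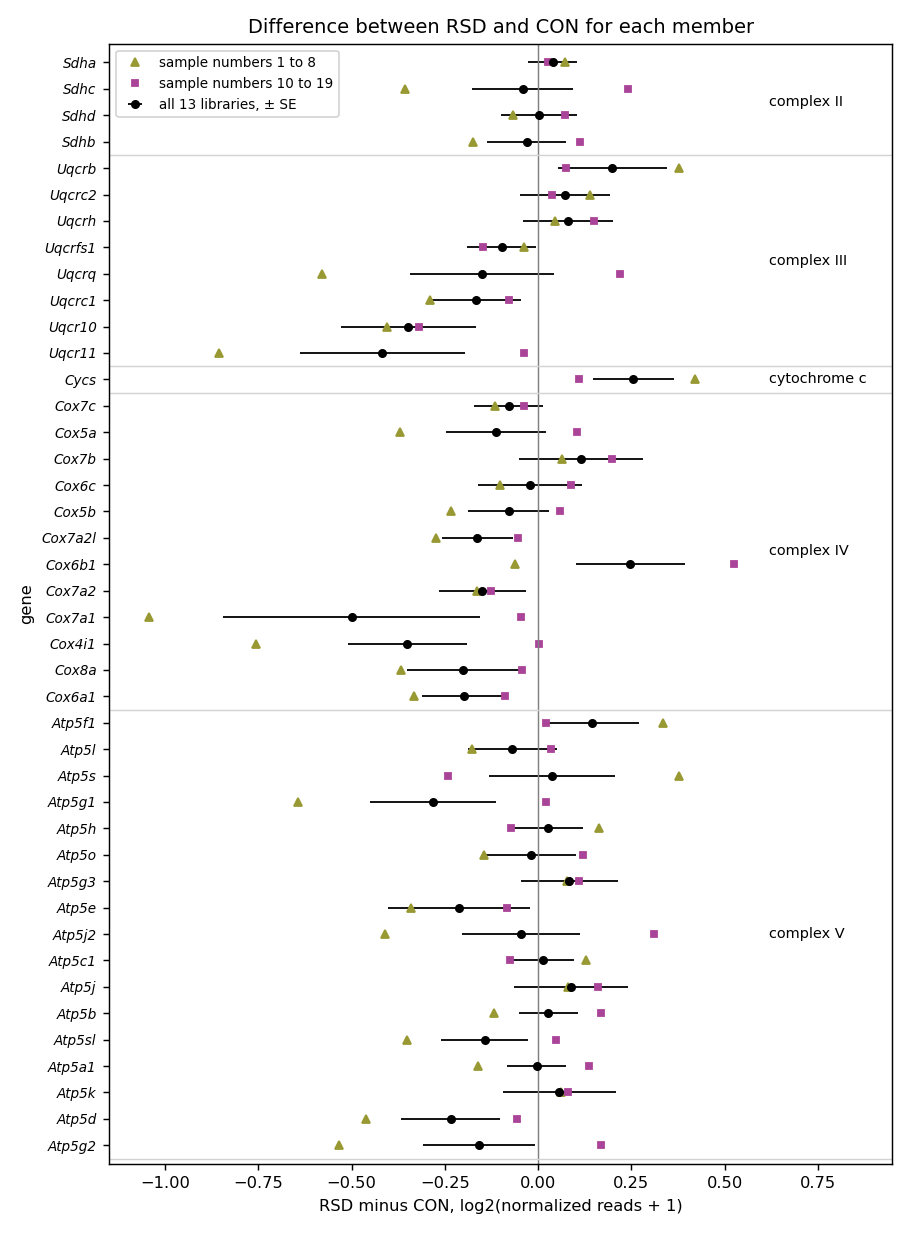
Log2 difference between RSD and CON for each of the 42 members tested (x axis, log2 of normalized reads + 1), by complex and within a complex from low to high transcript GC content; black points are all 13 libraries with their standard error, triangles sample numbers 1 to 8, squares sample numbers 10 to 19. All 12 complex IV squares lie to the right of their triangles, and Cox7a1 has the widest error.

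Shares are of the reads over the 14518 genes. The share taken by the 45 members together was 0.105% ± 0.00489 in RSD (SD, n = 7) and 0.109% ± 0.00945 in CON (SD, n = 6). It ran from 0.0982% to 0.110% and from 0.0977% to 0.121%, so the groups overlapped. Complex V took 0.0539% ± 0.00296 in RSD and 0.0549% ± 0.00524 in CON. Complex IV took 0.0171% ± 0.00130 and 0.0191% ± 0.00269, and complex III took 0.0157% ± 0.000585 and 0.0165% ± 0.00117. Complex II took 0.0157% ± 0.000903 and 0.0159% ± 0.00142. Cytochrome c alone took 0.00265% ± 0.000384 in RSD and 0.00225% ± 0.000205 in CON.

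In complex II, which oxidises succinate, the members differed little between the groups, with 2 of 4 lower in RSD and a median log2 difference of -0.01. Sdha (chromosome 13, 74322254 to 74350280), the flavoprotein that holds the succinate site, ran from 1001 over a median of 1084 to 1223 normalized reads in RSD and from 964 over 1061 to 1105 in CON. RSD 8 and RSD 7 (1119) lay above every control, and the other 5 RSD libraries lay within the CON range. On the log2 scale Sdha differed by 0.04 ± 0.07 (SE), or 0.01 without RSD 8 or without CON 19, and the coefficient of variation over all libraries was 6.16%, the lowest of the members. Sdhb, the iron-sulfur subunit, had 298 ± 33.5 normalized reads with RSD and 305 ± 43.0 in the controls, and its log2 difference was -0.03 ± 0.11.

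Sdhc (chromosome 1, 171127165 to 171150603) encodes a membrane anchor with a ubiquinone site. Its values ran from 162 over a median of 212 to 233 in RSD and from 136 over 228 to 256 in CON. The lowest value was that of CON 18, and the lowest in RSD was that of RSD 8. Sdhc had a log2 difference of -0.04 ± 0.14, which was 0.01 without CON 4 and 0.02 without RSD 8. It stood at -0.36 in the samples numbered 1 to 8 and at 0.24 in those numbered 10 to 19, which hold CON 18. Sdhd, the other anchor, had 196 ± 19.0 normalized reads with RSD and 196 ± 24.7 in the controls.

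Complex III had 5 of 8 members lower in RSD and a median log2 difference of -0.12, with members on both sides. Uqcrb (chromosome 13, 66900617 to 66905378), a subunit at the ubiquinone pocket, ran from 152 over a median of 178 to 296 in RSD and from 151 over 176 to 188 in CON. RSD 2 and RSD 8, at 296 and 276, lay above every other library, and the other 5 RSD libraries lay within the CON range. Its log2 difference was 0.20 ± 0.15, which was 0.10 without RSD 2 and 0.12 without RSD 8. With sample weights it was 0.07, and with the trend in GC content and length taken out it was 0.10. Uqcrb overlaps a predicted gene, Gm10767, on the opposite strand, and 3 pseudogene transcripts are at least 95% identical to it over at least 100 bases.

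Uqcr10 (chromosome 11, 4701973 to 4704342), a small subunit beside cytochrome c1 and the iron-sulfur protein, ran from 38.3 over a median of 73.2 to 84.4 in RSD and from 64.4 over 84.2 to 113 in CON. RSD 8 had the lowest value and CON 18 the highest. Uqcr10 differed by -0.35 ± 0.18 on the log2 scale (limma adjusted p = 0.821), which was -0.21 without RSD 8 and -0.14 without both libraries. Uqcr11, another small subunit, had 55.5 ± 15.3 normalized reads with RSD and 73.9 ± 19.8 in the controls (log2 -0.42 ± 0.22), and 28.7 in RSD 8 alone. Uqcrc1, a core protein facing the matrix, stood at 521 ± 94.0 and 576 ± 28.8, and RSD 8 at 323 was again the lowest. Uqcrfs1, the Rieske iron-sulfur protein, differed by -0.10 ± 0.09. Uqcrc2, the other core protein, was at 0.07 ± 0.12, Uqcrh, the hinge protein, at 0.08 ± 0.12, and Uqcrq at -0.15 ± 0.19.

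Cycs (chromosome 6, 50562563 to 50566538) had the smallest p of the members. Its normalized reads ran from 242 over a median of 290.1 to 379 in RSD and from 227 over 240.3 to 295 in CON. RSD 8 (379), RSD 2 (345) and RSD 10 (312) lay above every control, and the other 4 RSD libraries lay within the CON range. The mean was 302 ± 47.5 in RSD (SD, n = 7) and 251 ± 27.3 in CON (SD, n = 6), 1.19-fold higher on the log2(value + 1) scale. The log2 difference was 0.26 ± 0.11 (SE), with an unadjusted p of 0.0322 and an adjusted p of 0.821 in limma. In the samples numbered 1 to 8 it stood at 0.42 ± 0.15 and in those numbered 10 to 19 at 0.11 ± 0.14. It was positive under each alternative, and was 0.17 without CON 18 and RSD 8 and 0.16 once each library's trend with GC content and length was taken out. Transcripts of 51 other genes were at least 95% identical to a Cycs transcript over at least 100 bases, the most of any member. Of these genes 12 are in the table and 3 are pseudogenes, so reads of Cycs may be shared with them.

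The 5 genes most like Cycs over the 13 libraries were Eprs (Pearson r = 0.971), Exoc5 (0.947), Jak2 (0.943), Sp1 (0.943) and Phtf1 (0.935). Each was highest in RSD 8, and their transcripts had GC contents of 38.1% to 45.7%, beside 40.8% in Cycs. Of the members, Uqcrb came closest (0.664), at rank 1261 of all genes, followed by Atp5h (0.579) and Atp5c1 (0.576). These likenesses share the libraries and their composition and are given as a description.

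**Figure D2:**
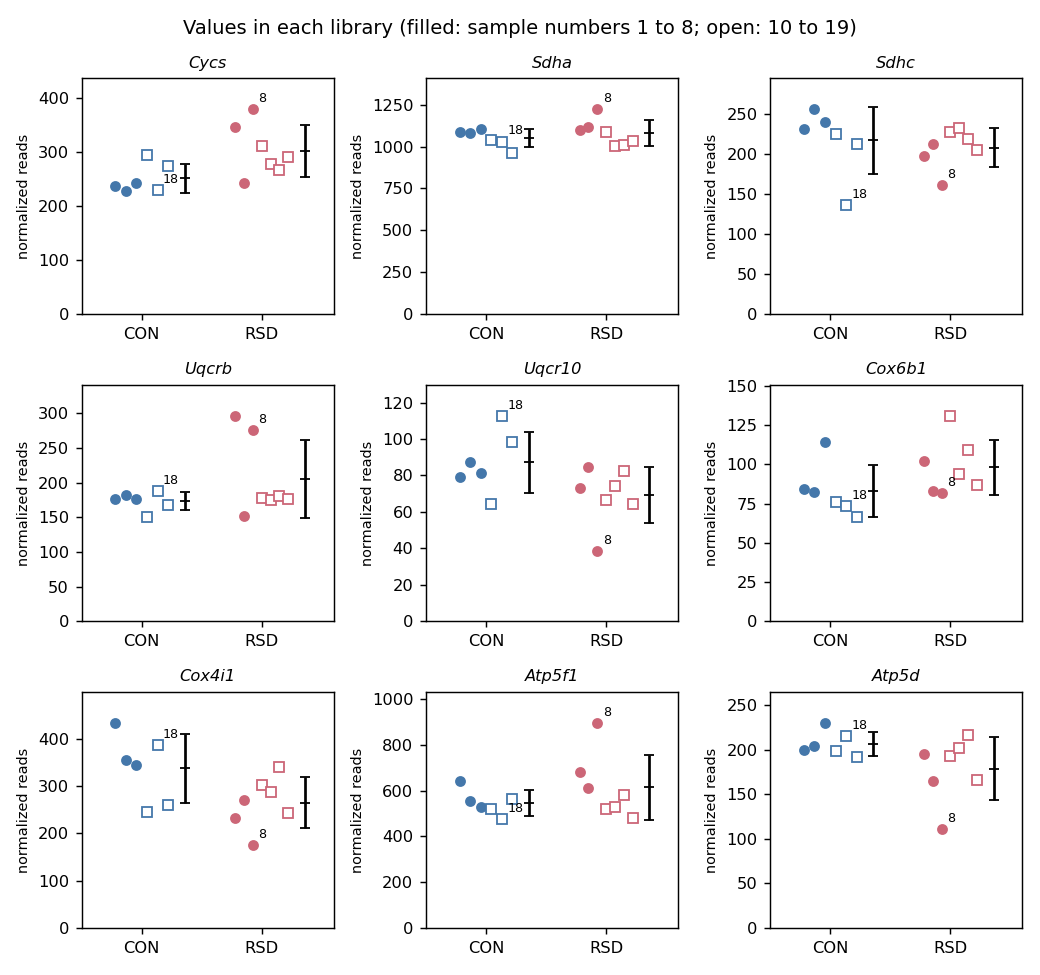
Normalized reads (y axis, from 0) of 9 members in each library of CON (blue) and RSD (red), with filled circles for sample numbers 1 to 8, open squares for numbers 10 to 19 and bars for the mean ± SD; CON 18 and RSD 8 are marked. RSD 8 is the highest library for Cycs, Sdha and Atp5f1 and the lowest for Uqcr10, Cox4i1 and Atp5d, and the groups overlap in all 9.

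In complex IV, cytochrome c oxidase, 10 of the 12 members tested were lower in RSD (83.3%), beside 48.6% of all genes. The median log2 difference was -0.13, and none passed. In the samples numbered 1 to 8, 11 of the 12 were lower, with a median of -0.25. In those numbered 10 to 19, 6 of the 12 were lower, with a median of -0.02. Cox4i1 (chromosome 8, 120668222 to 120674207), a subunit through which ATP and ADP act on the enzyme, ran from 175 over a median of 271 to 341 in RSD and from 246 over 351 to 434 in CON. CON 1 (434), CON 18 (388), CON 4 (356) and CON 5 (346) lay above every RSD library, while CON 17 (246) and CON 19 (259) lay within the RSD range. RSD 8 was the lowest. Cox4i1 had a log2 difference of -0.35 ± 0.16, with an unadjusted p of 0.0419 and an adjusted p of 0.821 in limma. In the samples numbered 1 to 8 it stood at -0.76 ± 0.19 (limma adjusted p = 0.103) and in those numbered 10 to 19 at 0.00 ± 0.18. Without CON 18 and RSD 8 it was -0.21. Cox4i1 shares its locus with Emc8 on the opposite strand and with Gm20388, and whether the counting used strand is not given in the sources used here.

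Cox6b1 (chromosome 7, 30616861 to 30626151), a subunit on the cytochrome c side, was the complex IV member of smallest p on the higher side. It ran from 81.9 over a median of 93.7 to 131 in RSD and from 66.7 over 79.3 to 114 in CON. RSD 10 was the highest and CON 19 the lowest and CON 5 (114) lay above every RSD library but RSD 10 (131). Cox6b1 differed by 0.25 ± 0.15 on the log2 scale (limma adjusted p = 0.821), with -0.06 in the samples numbered 1 to 8 and 0.52 in those numbered 10 to 19.

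Cox5a, a matrix-side subunit, had 128 ± 19.7 normalized reads with RSD and 139 ± 26.2 in the controls, and Cox5b, which binds zinc, at 137 ± 10.4 and 146 ± 22.3. Cox8a, a small membrane subunit, differed by -0.20 ± 0.15 and Cox6a1 by -0.20 ± 0.11. Cox7b, on the X chromosome, was at 0.11 ± 0.17, Cox6c at -0.02 ± 0.14 and Cox7c at -0.08 ± 0.09.

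Several complex IV and V subunits exist as isoforms from separate genes, so the balance within a library can be compared without the size factor. A library's trend with GC content need not cancel in such a ratio. The GC contents were 63.3%, 46.8% and 49.3% for Atp5g2, Atp5g1 and Atp5g3, and 55.3% and 51.9% for Cox7a1 and Cox7a2. The ratios were not run with that trend taken out. The log2 ratio of Cox7a1, the heart and muscle form, to Cox7a2, the form of most tissues, was -3.48 ± 0.64 in RSD and -3.10 ± 0.64 in CON. The difference of -0.38 had an exact two-sided permutation p of 0.316 over 1716 assignments (adjusted over 4 pairs, 0.422). It was -0.17 without RSD 8, -0.24 without CON 4, -0.25 without CON 17, -0.58 without CON 18 and -0.94 in the samples numbered 1 to 8. Cox7a1 itself had 9.40 ± 3.97 normalized reads with RSD and 13.2 ± 4.65 in the controls, from 3 to 22 reads a library, and differed by -0.50 ± 0.35. Cox7a2 differed by -0.15 ± 0.12. The log2 ratio of Cox7a2l to Cox7a2 was 2.12 ± 0.19 and 2.13 ± 0.14 (exact permutation p = 0.899, adjusted 0.899), and Cox7a2l itself differed by -0.16 ± 0.09.

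Subunit c of ATP synthase comes from 3 genes that encode the same mature protein behind different import sequences. Per kilobase of the principal transcript, Atp5g2 stood at 433 ± 84.7 in RSD and 480.4 ± 81.2 in CON. Atp5g3 stood at 260.3 ± 42.7 and 245 ± 41.2, and Atp5g1 at 98.7 ± 20.1 and 119 ± 14.9. Their log2 differences were -0.16 ± 0.15, 0.08 ± 0.13 and -0.28 ± 0.17 in that order. The log2 ratio of Atp5g1 to Atp5g3 reads was -1.67 ± 0.45 in RSD and -1.30 ± 0.24 in CON, a difference of -0.37 (exact permutation p = 0.0892, adjusted 0.357). That difference was -0.24 without RSD 8, -0.22 without CON 18 and RSD 8, and -0.73 in the samples numbered 1 to 8. The log2 ratio of Atp5g2 to Atp5g3 was 0.03 ± 0.36 and 0.27 ± 0.26 (exact permutation p = 0.202, adjusted 0.403). Their difference was -0.24, or -0.14 without RSD 8, -0.11 without CON 18 and RSD 8, and -0.61 in the samples numbered 1 to 8. These ratios were not run within numbers 10 to 19. Within those numbers the log2 differences of Atp5g1, Atp5g2 and Atp5g3 were 0.02, 0.17 and 0.11. Within numbers 1 to 8 they were -0.64, -0.53 and 0.08. No pair passed, and 3 of the 7 pairs fixed were not tested because a partner had no row or a mean under 10 normalized reads.

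**Figure D3:**
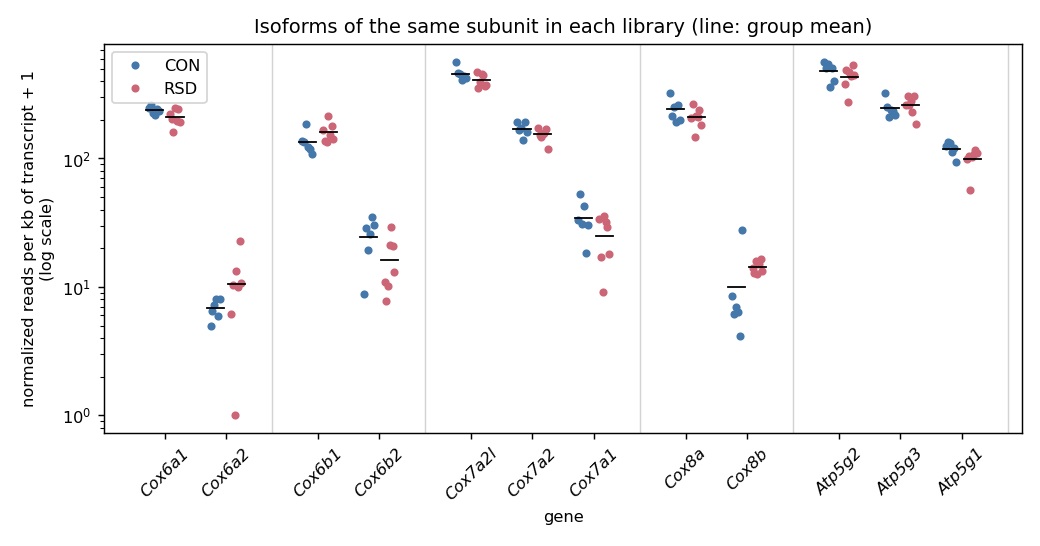
Normalized reads per kilobase of the shortest principal transcript, plus 1, on a log scale (y axis) for isoforms of the same subunit in each library of CON (blue) and RSD (red), with lines at the group means. The muscle or testis forms Cox6a2, Cox6b2, Cox7a1 and Cox8b lie below their partners in each library, and CON and RSD overlap for every gene.

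The 3 members not tested are these tissue-restricted forms of complex IV. Cox6a2 had 0 to 14.8 normalized reads in RSD and 2.70 to 4.83 in CON, Cox6b2 3.17 to 13.2 and 3.59 to 15.8, and Cox8b 4.16 to 5.55 and 1.13 to 9.67. Cox6a2 shares its locus with the integrin gene Itgad on the opposite strand. At 0 to 16 reads a library, these genes fell below the filter and were not tested in the main comparison. Without a filter on low values, 0 members were called.

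Complex V had 9 of 17 members lower in RSD and a median log2 difference of 0.00. The subunits of the catalytic head stood close together in both groups: Atp5b differed by 0.03 ± 0.08, Atp5c1 by 0.01 ± 0.08 and Atp5a1 by 0.00 ± 0.08. Atp5b had 1197 ± 88.3 normalized reads with RSD and 1178 ± 134 in the controls, and Atp5c1 745 ± 82.1 and 737 ± 57.2. Atp5f1 (chromosome 3, 105942698 to 105960099), subunit b of the peripheral stalk, ran from 480.1 over a median of 579.9 to 897 in RSD and from 476 over 541 to 641 in CON. RSD 8 was far above the rest, RSD 2 (682) was next, and the other 5 RSD libraries lay within the CON range. Its log2 difference was 0.15 ± 0.12, which was 0.05 without RSD 8 and 0.01 without CON 18 and RSD 8. Atp5f1 overlaps Wdr77 on the opposite strand.

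Atp5d (chromosome 10, 80138632 to 80145818), the delta subunit of the central stalk, ran from 111 over a median of 193 to 217 in RSD and from 192 over 202 to 231 in CON. RSD 8 (111), RSD 7 (166) and RSD 13 (167) lay below every control, and the other 4 RSD libraries lay within the CON range. Atp5d had a log2 difference of -0.23 ± 0.13 (limma adjusted p = 0.821), which was -0.12 without RSD 8 and -0.11 without CON 18 and RSD 8. Atp5e, the epsilon subunit of the same stalk, was at -0.21 ± 0.19. Of the other stalk and membrane subunits, Atp5h was at 0.03 ± 0.09, Atp5o at -0.02 ± 0.12, Atp5j at 0.09 ± 0.15, Atp5j2 at -0.05 ± 0.16, Atp5k at 0.06 ± 0.15 and Atp5l at -0.07 ± 0.12. Atp5s and Atp5sl, the genes outside the textbook synthase, were at 0.04 ± 0.17 and -0.14 ± 0.12.

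**Figure D4:**
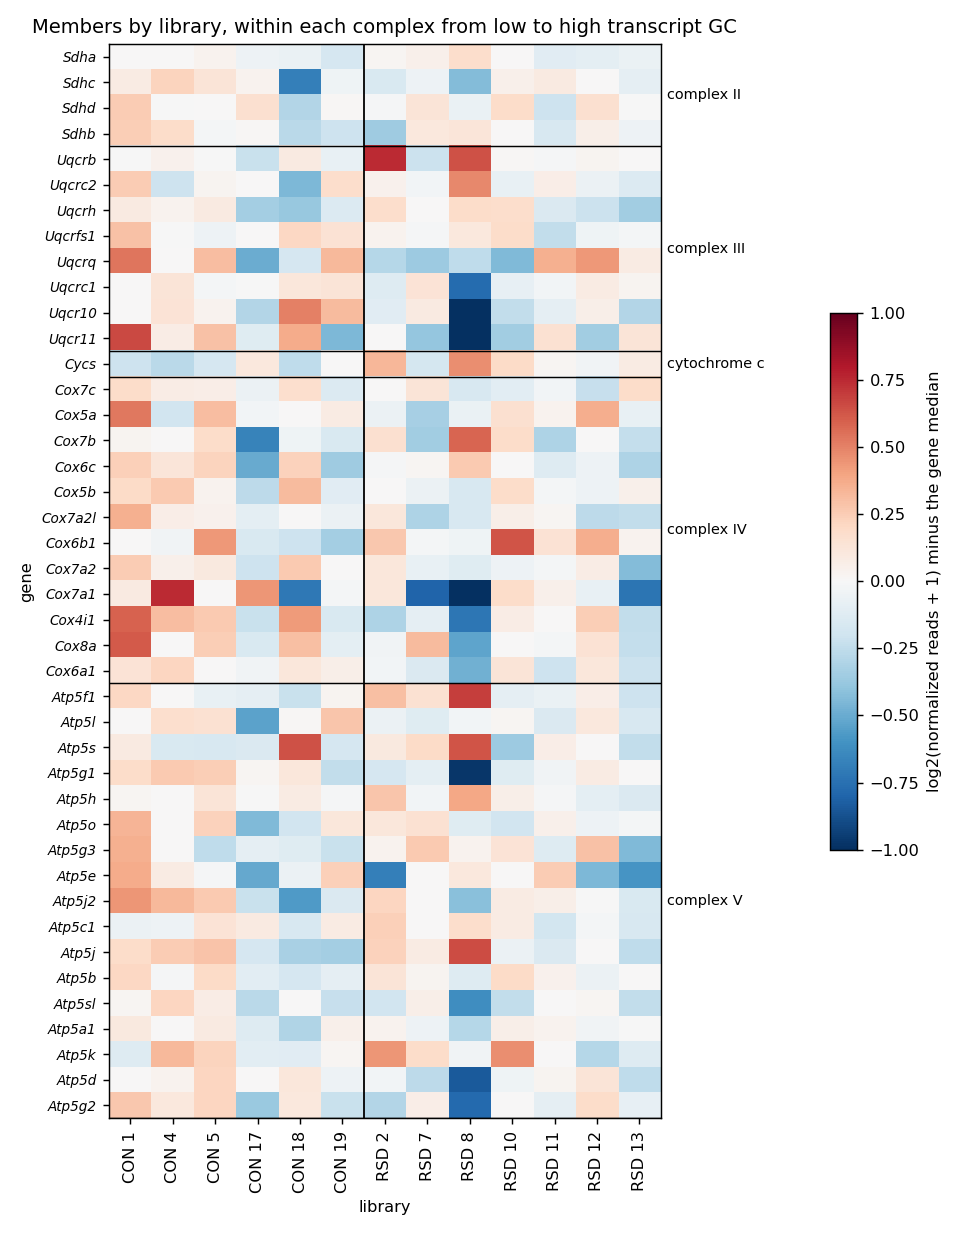
Each of the 42 members (rows, by complex and within a complex from low to high transcript GC content) in each library (columns), as log2(normalized reads + 1) minus the gene's median. CON 1 is mostly above the median, and in RSD 8 the values go from above to below the median as the GC content rises.

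Across libraries, the highest values of the members came most often from a control. CON 1 was the highest library for 17 of the 42 members (40.5%), beside 7.01% of all genes, and the lowest for 0. CON 17 was the lowest for 7 members (16.7%), beside 5.02% of all genes. RSD 8 was the lowest for 11 members (26.2%) and the highest for 9 (21.4%), beside 24.9% and 27.5% of all genes. CON 18 was the lowest for 8 and the highest for 4, beside 22.6% and 21.5% of all genes. The coefficient of variation between libraries was above that of counting error alone for all 45 members. It was 23.3% against 11.5% for Uqcr10 and 6.16% against 3.09% for Sdha. For Cox8b, with 1 to 10 reads a library, the gap was small, at 55.2% against 50%. These gaps were not tested.

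In RSD 8 the members followed their GC content. Of the 8 members with 55% GC or more, 7 were below every other library there and none was above, with a median log2 deviation of -0.78. Of the 9 members under 45% GC, 4 were above every other library and none was below, with a median of 0.50. Among the 25 between these bounds 4 were below and 5 above, with a median of -0.14. The Spearman correlation of deviation and GC content over the members was -0.666 in RSD 8, -0.324 in RSD 2, 0.400 in CON 4 and 0.276 in CON 5. In CON 18 it was 0.143.

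**Figure D5:**
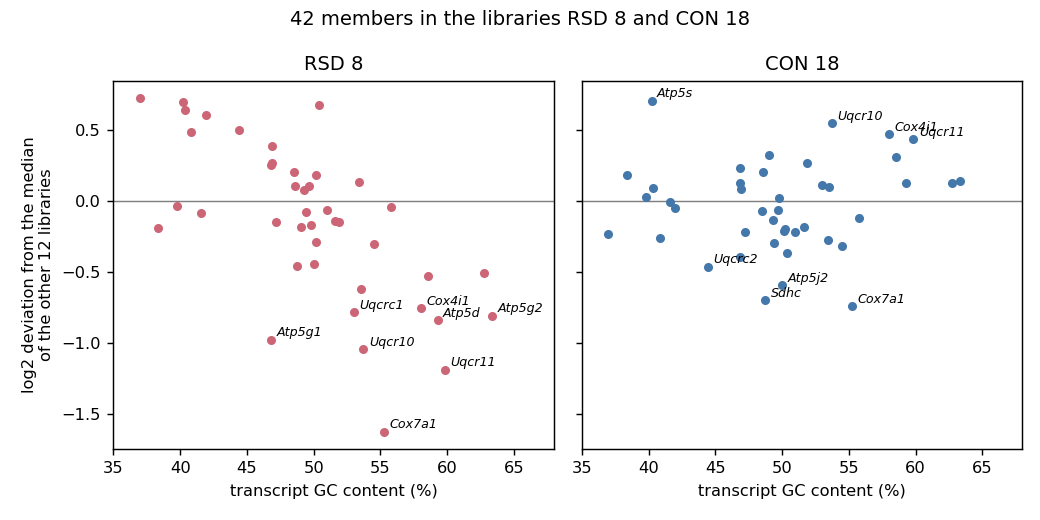
Log2 deviation of each of the 42 members from its median in the other 12 libraries (y axis) against the GC content of its longest transcript in percent (x axis), in RSD 8 and in CON 18; the 8 members farthest from 0 in each library are named. The points fall with GC content in RSD 8, from 0.73 for Atp5f1 to -1.63 for Cox7a1, and show no such slope in CON 18.

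The difference between RSD and CON went with GC content as well. Of the 8 members with 55% GC or more 7 were lower in RSD, with a median log2 difference of -0.22, and of the 9 under 45% GC 3 were lower, with a median of 0.07. The same split over all genes gave 76.4% lower with a median of -0.11 and 22.7% lower with a median of 0.09. Over all genes the order turned between the sample number ranges. In the samples numbered 1 to 8 the median was -0.34 at 55% GC or more and 0.27 under 45%, and in those numbered 10 to 19 it was 0.07 and -0.06. The members' medians were -0.50 and 0.14 in the first range and -0.04 and 0.04 in the second. After each library's trend with GC content and length had been taken out, 24 of the 42 members were lower with a median of -0.04, Cox4i1 was at -0.22 and Uqcr10 at -0.28. The members' transcripts were shorter than most, with a median length of 1231.5 bases against 3296, at a median GC content of 49.7% against 49.5%.

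The sample numbers fall in 2 ranges, 1 to 8 with 3 RSD and 3 CON libraries and 10 to 19 with 4 RSD and 3 CON. The labels do not call these ranges a batch. Within numbers 1 to 8, 29 of the 42 members were lower in RSD, with a median log2 difference of -0.16, beside 51% of all genes. None was called (0% of all genes), and 10 had an unadjusted limma p under 0.05 (23.8%), beside 24.3% of all genes. Within numbers 10 to 19, 15 of 42 were lower, with a median of 0.04, beside 48.8% of all genes. None was called there (0%), and 1 member, Cox6b1, had an unadjusted p under 0.05 (2.38%), beside 5.52% of all genes. For 22 of the 42 members the difference had the same sign in both ranges.

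The difference between the ranges was tested as an interaction in limma. It was called for 0 members and for 0 of all genes (0%). At an unadjusted p under 0.05 there were 8 members (19.0%), beside 21.7% of all genes. For 33 of the 42 members the signed RSD minus CON value was more positive in the upper range (10 to 19) than in the lower. This held for 12 of 12 in complex IV, and for 6529 of all 12496 genes. It is a count of direction and not of size, so it does not show a stronger group difference in the upper range. Atp5j2, a membrane subunit of ATP synthase, stood at -0.41 and 0.31 in the 2 ranges (limma adjusted p of the difference = 0.156), and Cox4i1 at -0.76 and 0.00 (0.166). Both ranges hold a library that stands apart, RSD 8 in the lower and CON 18 in the upper, and the part of either in these values was not tested.

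Complex I, which feeds the same ubiquinone pool, had 29 of 34 tested subunits lower in RSD (85.3%), beside 48.6% of all genes. Its median log2 difference was -0.09, with 0 called. That median was -0.21 in the samples numbered 1 to 8 and -0.03 in those numbered 10 to 19. Its lower and higher members of smallest p were Ndufa3 (-0.43 ± 0.17) and Ndufs1, which holds iron-sulfur clusters of the peripheral arm (0.15 ± 0.08). The difference from complexes II to V was not tested.

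Over 11 lists of related genes, complex I included, 0 of 106 tested genes passed. Of the 5 subunits and partners that the symbol rule leaves out, 2 were lower, with Ndufa4, now counted with complex IV, at 0.10 ± 0.13 and Atpif1, the inhibitor of ATP synthase, at -0.06 ± 0.13. Assembly factors were lower in 0 of 2 genes for complex II, in 3 of 5 for complex III, in 12 of 21 for complex IV and in 1 of 3 for complex V. Among those of complex IV, Lrpprc, which stabilises mitochondrial messenger RNA, was at 0.18 ± 0.08, and Coa6, a copper-related factor, at -0.24 ± 0.15. Of the 3 carriers of phosphate and adenine nucleotides, 2 were lower, and Slc25a3, the phosphate carrier, was at -0.11 ± 0.06. Of the 5 genes that deliver electrons to ubiquinone by other routes 1 was lower, and Etfdh was at 0.23 ± 0.12. Ubiquinone synthesis had 5 of 11 lower, and the 5 genes taken as a measure of mitochondrial mass had 2 lower, with the chaperone gene Hspd1 at 0.45 ± 0.19.

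Regulators of mitochondrial gene expression had 3 of 12 tested genes lower and a median of 0.11, which was 0.24 within sample numbers 1 to 8 and 0.00 within numbers 10 to 19. Tfam, which packages and transcribes mitochondrial DNA, had 298 ± 41.3 normalized reads with RSD and 243 ± 37.4 in the controls. Its log2 difference was 0.30 ± 0.12 (limma adjusted p = 0.821). Esrra, a nuclear receptor that acts on respiratory genes, was at -0.21 ± 0.15.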

How the data were processed

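Mouse microglia of 7 RSD and 6 CON samples were sorted by flow cytometry and sequenced after depletion of ribosomal RNA (PicoPure, Ovation SoLo, per the labels' protocols). The submitters' processing notes name STAR, mm10 and DESeq2. Versions, the counting tool and whether it used strand are not given in the sources. The deposited table holds a signal per gene and library that the authors made from read counts divided by a size factor. In the values themselves, 100% were whole multiples of 1 step per library within 0.01 reads, which gave back the read counts. Summed over the 14518 genes these were 9.76 to 12.3 M a library, and reads outside these genes are not included. At that depth a member of a few reads is uncertain by counting error alone.

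Genes were kept by filterByExpr (edgeR 4.0.16, minimum count 10, minimum total 15), which left 12496. RSD was compared with CON by limma 3.58.1 (trend, robust, two-sided) on log2(value + 1) with Benjamini-Hochberg adjustment over all genes kept and a threshold of 0.05. The same model with the sample number range gave the within-range effects and their difference. Fold changes on this scale understate those of low genes. The limma step was also run on simulated counts, drawn independently per gene without a GC trend or a library that stands apart. That run cannot show how the test behaves with libraries like RSD 8 and CON 18. edgeR's quasi-likelihood test on the recovered reads called 0 genes, and DESeq2 1.42.0 was also run. Other alternatives were limma-voom with sample weights, TMM factors, pseudocounts of 0.5 and 5, other filters, each library left out, CON 18 and RSD 8 left out, the number ranges, and removal of each library's loess trend (span 0.3) with GC content and length. Isoform log2 ratios (value + 0.5) were compared by exact permutation over 1716 assignments, adjusted over 4 pairs.

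Lengths, GC contents and coordinates come from GENCODE M21 (GRCm38), in which 44 members matched by symbol and 1 by a RefSeq synonym. Near-identical transcripts were searched with BLAST 2.17.0 (at least 95% identity over 100 bases). Promoter windows come from RefSeq (GRCm38.p6), without chromosome 18. Windows are missing here for Atp5a1, Atp5f1, Atp5s, Cox4i1, Cox6a2, Cox6c, Sdhc, Uqcrb, Uqcrc2 and Uqcrq. The members and all gene lists were chosen with earlier results of these data known. Values in every library's range are given for Cycs, for the member of smallest p in each direction in each complex, and for any member called or without overlap between the groups. Group values are given for a fixed set of core subunits, the isoform pairs and the highest and lowest members per length, and related lists are shown by their member of smallest p in each direction. The labels do not say that samples are separate animals, so a p-value reflects sample-to-sample spread, which may be technical.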

Additional observations from a re-analysis of the deposited data

Results flagged for a closer look

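Of the 34 groups of values examined (9 named members, 4 complex means and 4 isoform ratios in RSD and in CON), 2 held a library far from the rest of its group, where chance gives about 1 in 20. Sdhc stood at 136.354 normalized reads in CON 18, with the nearest control at 212.702 and the highest at 256.015. This is the control library with high border macrophage markers. Cox6b1 stood at 114.201 in CON 5, with the nearest control at 84.5 and the lowest at 66.7.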

How the results depend on the processing

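Members called stayed at 0 under each alternative run, and Cycs, Uqcrb, Uqcr10 and Atp5d kept their sign. All genes called was 2 with DESeq2 and 0 in the other alternatives. Members lower in RSD numbered 15 within sample numbers 10 to 19 against 26 over all libraries, and the median turned from -0.04 to 0.04. With 1 library left out they numbered 22 to 29, with medians from -0.11 to -0.01, the smallest without CON 1. Without both CON 18 and RSD 8 they numbered 32, with a median of -0.05. With sample weights they numbered 36, with a median of -0.10. Signs turned for Sdha (-0.0189) and Atp5f1 (-0.0135) with sample weights, for Sdhc (0.24) and Cox4i1 (0.00127) within numbers 10 to 19 and for Cox6b1 (-0.0625) within numbers 1 to 8. The cause was not tested. With 1 library left out, Sdhc ran from -0.169 to 0.0176, turning without CON 4 (0.0118) or RSD 8 (0.0176), and the Cox7a2l to Cox7a2 difference ran from -0.0592 to 0.0377. The latter turned without CON 1 (0.0123), RSD 7 (0.0202), RSD 12 (0.0377) or CON 17 (0.0142). None of these differences passed its test. Within numbers 1 to 8 an isoform ratio cannot reach an exact p under 0.1. The isoform ratios were not run within numbers 10 to 19, so whether their differences turn there is not known. No paired analysis was possible because the groups share no sample numbers. Depth limits Cox6a2, Cox6b2, Cox7a1 and Cox8b most, at 0 to 22 reads a library.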
